A study of Mus musculus with 8 samples.

Results

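Oligodendrocyte progenitor genes were followed in the RNA-seq counts of newborn mouse brains after maternal exposure to cadmium (Cd). The 8 genes were *Pdgfra*, *Cspg4*, *Ptprz1*, *Lhfpl3*, *Olig1*, *Olig2*, *Sox10* and *Sox8*, taken as a list of symbols, and each matched 1 Ensembl identifier of the 49585 in the table of reads aligned to the C57BL/6J genome. All 8 passed the filter on low counts, which kept 23113 genes. The brains came from hybrid females, C57BL/6J by their dam and CAST/EiJ by their sire, collected on postnatal day 1. Dams drank water with CdCl2 at 0 ppm (control, 4 pups) or 50 ppm (exposed, 4 pups) from before mating until birth, and each pup came from a different litter. RNA was taken from the whole brain, so that fewer progenitor cells and less progenitor RNA per cell cannot be told apart in these data.

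Oligodendrocyte progenitors are dividing glial precursors that arise in germinal zones, spread through the brain before and after birth, and give rise to the oligodendrocytes that wrap axons in myelin. They are kept in division largely by platelet-derived growth factor acting on the receptor encoded by *Pdgfra*. They are committed to the lineage by the basic helix-loop-helix factors Olig1 and Olig2 and the SoxE factors Sox10 and Sox8. As they differentiate, *Pdgfra* and *Cspg4* are switched off, genes of newly formed oligodendrocytes come on, and the myelin genes follow, while *Sox10* and the *Olig* genes stay on for longer. The mouse brain at birth holds many progenitors and little myelin, so the list describes the pool from which later myelin is made.

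Libraries held 22916434 to 30708087 counted reads. Counts are given as CPM, the reads of a gene scaled to a common library total after TMM normalization, whose factors lay between 0.986 and 1.02. Within a dose the libraries differed by more than counting noise in all 12 pairs (chi-square per degree of freedom 9.28 to 22.7). Brainstem and spinal cord transcripts differed among the control libraries. The summed level of 11 genes of the brainstem and spinal cord was 0.512, 4.54, 49.7 and 59.0 CPM in 0 ppm replicates 1 to 4. At 50 ppm it lay between 48.0 and 178 CPM, so 0 ppm replicates 1 and 2 stood apart from the other 6 libraries. Of these 11 genes, which include *Hox* genes, 2 had no counted reads in any library. Of 11 forebrain genes 10 had a lower mean at 50 ppm. Results are therefore also given without those control libraries where they move. Of 9 neuronal genes 8 were counted in every brain, with a sum of 3136 to 3588 CPM, and *Tubb3* was listed at 0.

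No difference between doses was detected in any of the 8 progenitor genes. By the quasi-likelihood test of edgeR, adjusted over 23113 genes by the Benjamini-Hochberg method, the adjusted p was 0.999 for each of the 8, and 0.0173% of all genes passed 0.05. None had an unadjusted p under 0.05 with edgeR or with DESeq2, where 3.75% of all genes did with edgeR. The smallest unadjusted p was 0.140, for *Lhfpl3*. The ranges of the doses overlapped in all 8, as in most genes, since only 2.09% of all genes had doses without overlap. The log2 fold changes of 50 ppm against 0 ppm lay between -0.15 and 0.16, 6 of them positive and 2 negative. Their median was 0.03, against -0.003 over all genes tested. The 95% intervals of the 8 fold changes lay within 0.773 to 1.31, so a larger change in either direction lay outside the interval of each gene. Summed over the 8 genes, control brains had 1141 ± 83.4 CPM and exposed brains 1174 ± 83.1 CPM (SD, n = 4 each). Most of each sum was *Ptprz1*, with means of 768 CPM at 0 ppm and 791 CPM at 50 ppm.

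**Figure D1:**
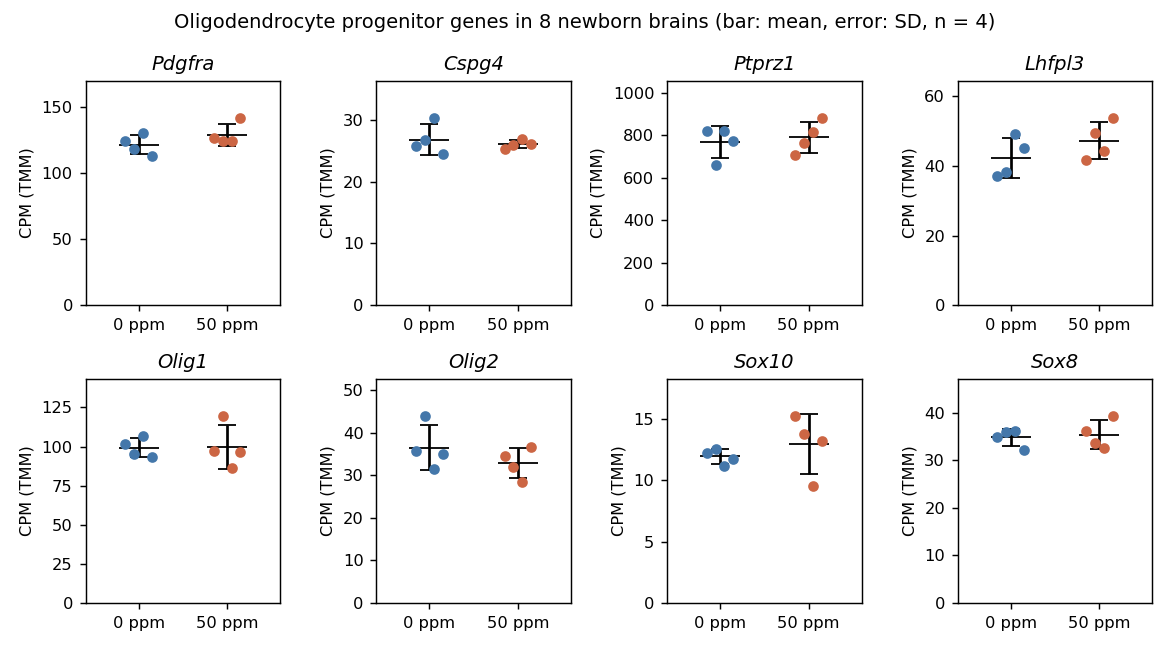
CPM of each progenitor gene (vertical axes, from 0) in the 4 brains at 0 ppm and the 4 at 50 ppm, with each point a brain and the bar and whiskers the mean and SD. The doses overlap in all 8 panels.

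**Figure D2:**
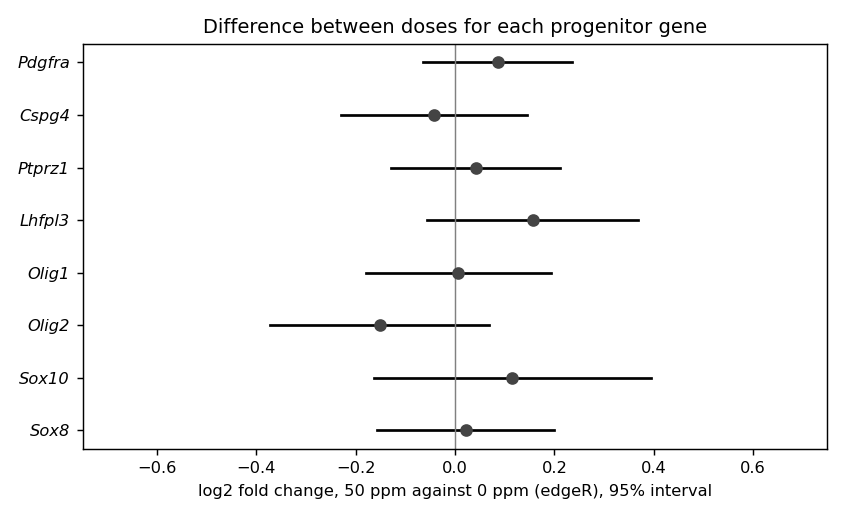
Log2 fold change of 50 ppm against 0 ppm for each gene (points) with its 95% interval from edgeR's quasi-likelihood fit (lines). Every interval includes 0, and *Sox10*, the gene with the largest standard error, has the widest.

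Among the membrane proteins, *Pdgfra* (ENSMUSG00000029231, GRCm38 chromosome 5, 75152292 to 75198215, plus strand) encodes the receptor for platelet-derived growth factor A that defines the progenitor stage. It had 124, 118, 130 and 113 CPM in 0 ppm replicates 1 to 4 and 127, 124, 124 and 141 CPM in 50 ppm replicates 1 to 4. The exposed brains sat inside the control range except for 50 ppm replicate 4, which was the highest of the 8. The log2 fold change was 0.09 (standard error 0.07, 95% interval -0.06 to 0.24), and p was 0.286 when log2 CPM was compared by exact permutation (two-sided).

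*Cspg4* (ENSMUSG00000032911, chromosome 9, 56865033 to 56899870, plus strand) encodes NG2, the chondroitin sulfate proteoglycan on the surface of progenitors and of pericytes. The control brains had 25.7, 26.8, 30.2 and 24.4 CPM and the exposed brains 25.2, 26.0, 26.8 and 26.0 CPM. All 4 exposed brains lay within the control range, with an SD of 0.657 CPM against 2.48 CPM in the controls. The log2 fold change was -0.04 (standard error 0.09, 95% interval -0.23 to 0.14; exact permutation p = 0.743).

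*Ptprz1* (ENSMUSG00000068748, chromosome 6, 22875502 to 23052916, plus strand) encodes a receptor tyrosine phosphatase of progenitors and radial glia that binds pleiotrophin and tenascins. It was the most counted of the 8, with 822, 659, 820 and 772 CPM in the control pups and 708, 763, 813 and 879 CPM in the exposed pups. The lowest brain was a control and the highest an exposed one, and the others were mixed. The log2 fold change was 0.04 (standard error 0.08, 95% interval -0.13 to 0.21; exact permutation p = 0.800).

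*Lhfpl3* (ENSMUSG00000106379, chromosome 5, 22746059 to 23275597, plus strand) encodes a tetraspan membrane protein whose transcript marks progenitors in single-cell surveys. It had 37.1, 38.1, 49.1 and 45.0 CPM in the control pups and 41.5, 49.5, 44.3 and 53.6 CPM in the exposed pups. The control brains with the lowest levels were replicates 1 and 2, the libraries nearly without brainstem and spinal cord transcripts, while replicates 3 and 4 fell among the exposed brains. Its log2 fold change was the largest of the 8 at 0.16 (standard error 0.10, 95% interval -0.06 to 0.37; exact permutation p = 0.257). Without those control libraries it was -0.001 (standard error 0.11), and with a covariate for the mean log2 CPM of the brainstem and spinal cord list it was -0.004. All 9 tested genes of that list had a positive log2 fold change, so the covariate cannot tell brain region from dose.

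Among the transcription factors, *Olig2* (ENSMUSG00000039830, chromosome 16, 91225457 to 91228677, plus strand) specifies the lineage and is also active in precursors of motor neurons and some forebrain neurons. It had 35.7, 43.9, 31.5 and 35.0 CPM in the control pups and 34.5, 32.0, 28.5 and 36.7 CPM in the exposed pups. The value of 0 ppm replicate 2 was above all others, and the remaining 7 brains spread from 28.5 to 36.7 CPM with the doses mixed. *Olig2* had the lowest log2 fold change of the 8, -0.15 (standard error 0.10, 95% interval -0.37 to 0.07; exact permutation p = 0.343). Without 0 ppm replicates 1 and 2 it was -0.02 (standard error 0.11), and with the brainstem and spinal cord covariate -0.05.

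*Olig1* (ENSMUSG00000046160, 91269772 to 91271933, plus strand) lies on the same chromosome, 41.1 kb beyond *Olig2*, and promotes maturation of the lineage. The control brains had 102, 94.98, 107 and 93.4 CPM and the exposed brains 97.0, 119, 86.2 and 96.3 CPM. Exposed brains held both the highest and the lowest value, and the means of 99.3 ± 6.24 and 99.7 ± 14.1 CPM (SD, n = 4) differed by less than either SD. The log2 fold change was 0.01 (standard error 0.09, 95% interval -0.18 to 0.19; exact permutation p = 1).

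*Sox10* (ENSMUSG00000033006, chromosome 15, 79154908 to 79165240, minus strand) encodes the SoxE factor that activates many oligodendrocyte and Schwann cell genes and stays on through myelination. It had 12.3, 12.6, 11.2 and 11.7 CPM in the control pups and 15.2, 13.8, 9.49 and 13.2 CPM in the exposed pups. In 3 of the 4 exposed brains it was above every control, and in 50 ppm replicate 3 it was below every control. The SD was 0.616 CPM at 0 ppm and 2.44 CPM at 50 ppm, and the log2 fold change was 0.12 (standard error 0.13, 95% interval -0.16 to 0.39; exact permutation p = 0.571). With 1 library left out it ranged from 0.03 without 50 ppm replicate 1 to 0.25 without 50 ppm replicate 3, neither with an adjusted p under 0.05.

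*Sox8* (ENSMUSG00000024176, chromosome 17, 25565892 to 25570686, minus strand) encodes a related SoxE factor with a partly shared role in the lineage. It had 35.0, 35.9, 36.2 and 32.2 CPM in the control pups and 36.1, 33.6, 32.5 and 39.3 CPM in the exposed pups. The doses were interleaved, and only 50 ppm replicate 4 exceeded the control range. The log2 fold change was 0.02 (standard error 0.08, 95% interval -0.16 to 0.20; exact permutation p = 0.743). None of the 8 permutation tests came near 0.0286, the smallest p-value that 4 brains against 4 allow.

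Exon overlap with other genes could change the counts of some of the 8, by gain or by loss of reads. *Cspg4*, *Olig2*, *Sox10* and *Ptprz1* have no exon overlap with another gene in GENCODE M21. The exons of *Lhfpl3*, *Sox8*, *Olig1* and *Pdgfra* share 17.6%, 10.6%, 7.3% and 6.2% of their length with genes read from the other strand, and the strand setting of the count is not given in the sources used here. The partner of *Sox8*, 2810468N07Rik, had 124 to 223 reads in a library and that of *Lhfpl3*, A930003O13Rik, 12 to 33. The partners of *Olig1* and *Pdgfra* had at most 3. The lowest count of any of the 8 genes in any brain was 266 reads (*Sox10*). Pooled over the doses, the spread between brains was larger than counting error for each gene, from a coefficient of variation of 6.29% against 1.70% for *Pdgfra* to 14.3% against 5.41% for *Sox10*.

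**Figure D3:**
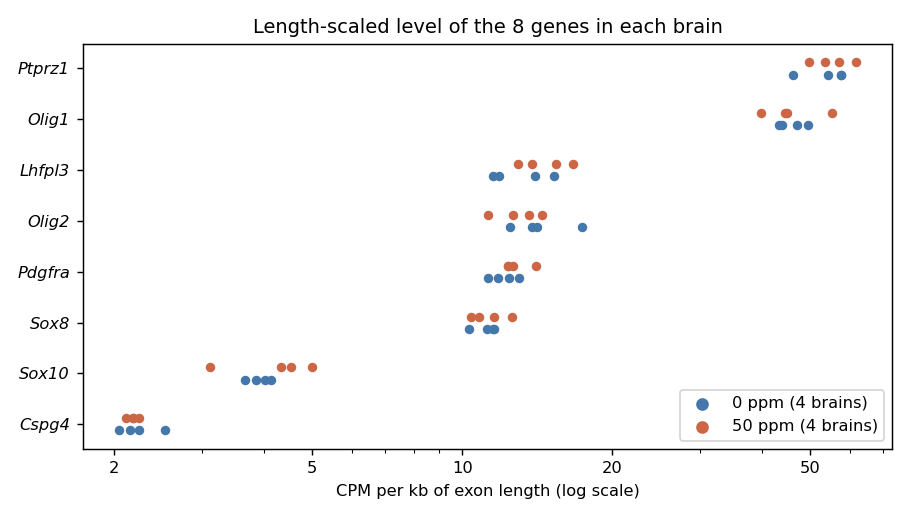
CPM per kb of merged exon length (log axis) of each gene in the 8 brains, control below and exposed above on each row. *Ptprz1* and *Olig1* form a high pair, 4 genes lie between 10.3 and 17.4 CPM per kb, and *Sox10* and *Cspg4* are lowest.

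Levels between genes were compared per length, as CPM per kb of merged exon length. *Ptprz1* had 54.7 ± 4.92 CPM per kb (SD over the 8 brains) and *Olig1* 46.0 ± 4.66, and their ranges overlapped although *Ptprz1* was the higher in 7 of 8 brains. *Lhfpl3* (13.9 ± 1.80), *Olig2* (13.7 ± 1.81), *Pdgfra* (12.5 ± 0.830) and *Sox8* (11.3 ± 0.741) followed, and each overlapped the next. *Sox10* had 4.07 ± 0.568 CPM per kb and *Cspg4* 2.21 ± 0.145 CPM per kb, and neither overlapped its neighbours in this order. These are levels in whole brain, not within a progenitor.

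Correlations among the 8 genes from pup to pup were mostly weak. Of their 28 pairs, 20 had a positive Pearson correlation of log2 CPM over the 8 brains, with a median r of 0.20 and a range from -0.52 to 0.79. *Pdgfra* and *Sox8* had the highest (r = 0.79, exact permutation p = 0.0234; Spearman rho = 0.83, exact permutation p = 0.0154), and after Benjamini-Hochberg adjustment over the 28 pairs the exact permutation p-values were 0.655 and 0.431. Without the 2 brains farthest from the median of *Pdgfra* r was 0.16. Leaving them out narrows the range of *Pdgfra*, so this value cannot show whether the relation rests on those brains. For deviations from the dose means of all 8 brains r was 0.84. In the 6 brains other than 0 ppm replicates 1 and 2 it was 0.91. *Olig1* and *Olig2*, neighbours on chromosome 16, had r = -0.07 (exact permutation p = 0.855) and rho = -0.12 (exact permutation p = 0.793). No pair had an adjusted p under 0.05. The brain of 50 ppm replicate 4, whose library had the fewest reads, was highest in 4 of the 8 genes, and 0 ppm replicate 4 and 50 ppm replicate 3 were each lowest in 3.

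The genes whose level over the 8 brains was most like the mean standardized level of the progenitor genes were *Ap3s1*, which encodes a subunit of the AP-3 vesicle adaptor (r = 0.95), *Lgmn*, a lysosomal protease (r = 0.95), and *Dstn*, an actin-depolymerizing protein (r = 0.94). They are the highest of 14594 genes compared over 8 brains that share these libraries, which is a description without a test. Their log2 fold changes were 0.01, 0.03 and 0.03, and edgeR gave each an adjusted p of 0.999.

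Genes that act with the 8 or mark the same stage were taken as 5 lists. Of their 47 genes, edgeR called none at an adjusted p under 0.05, and 2 had an unadjusted p under 0.05 (4.26%, against 3.75% of all genes). Their median log2 fold change was 0.03. The 15 other progenitor markers included *Cacng4*, *Vcan*, *Bcan*, *Pcdh15* and *C1ql1*, with 9 positive and 6 negative log2 fold changes and a median of 0.03. *Susd5*, which had 1.21 ± 0.234 CPM in control brains and 1.78 ± 0.456 CPM in exposed brains (SD, n = 4), had the smallest p among them (log2 fold change 0.54, standard error 0.24, edgeR adjusted p = 0.999). *Cacng4*, a calcium channel gamma subunit gene, was the 1 gene of the 47 whose doses did not overlap, a share close to the 2.09% of all genes, and was named after its values were seen. It had 276 to 295 CPM in the control brains and 253 to 274 CPM in the exposed brains (log2 fold change -0.12, standard error 0.06).

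Of 9 ligands and receptors of the PDGF and FGF families none passed, with a median log2 fold change of 0.15. *Pdgfa*, the ligand of the receptor encoded by *Pdgfra*, had 34.6 ± 1.99 CPM without Cd and 33.8 ± 2.99 CPM with it (SD, n = 4). *Pdgfd* (0.31, standard error 0.18) had the largest log2 fold change, and *Pdgfrb*, the pericyte PDGF receptor, the smallest p (0.17, standard error 0.09). In the hedgehog pathway, which specifies ventral progenitors, the median of 6 genes was 0.004, and *Gli2*, an effector of the pathway, was farthest from 0 at 0.17 (standard error 0.19). Of 6 ligands and partners of *Ptprz1* the median was 0.07. On the log2 scale the fold change was 0.13 for the contactin gene *Cntn1* (standard error 0.07), and for the growth factor gene *Mdk* it was -0.18 (standard error 0.11), neither past the threshold. Of 11 transcription factors of progenitor specification and maintenance the median was 0.01. *Nkx6-2*, a homeobox gene of ventral progenitors and of oligodendrocytes, averaged 1.12 ± 0.478 CPM in control and 1.88 ± 0.610 CPM in exposed brains (SD, n = 4; log2 fold change 0.74, standard error 0.31, edgeR adjusted p = 0.999).

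**Figure D4:**
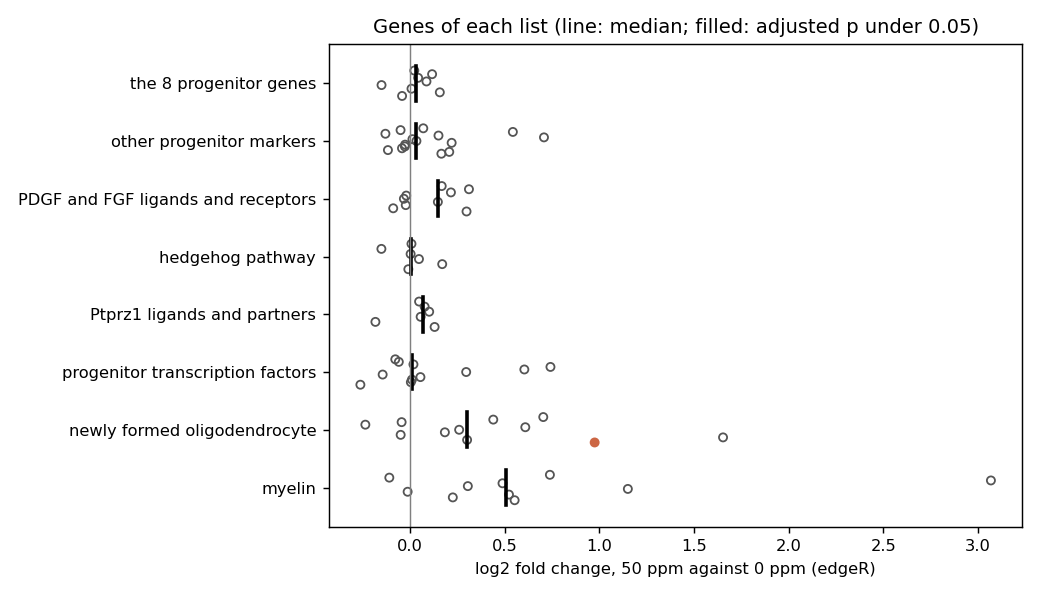
Log2 fold change of 50 ppm against 0 ppm for the genes of each list (points, jittered vertically), with the list median as a line and genes with an adjusted p under 0.05 filled. The medians of the 8 progenitor genes and of 4 of the 5 lists around them lie between 0 and 0.1, and *Bcas1* is the 1 filled point.

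Genes of later stages of the lineage are set beside the progenitor genes here, without a test of the difference between stages. Of 21 genes of newly formed oligodendrocytes and myelin that had over 3 reads in a brain, 1 had an adjusted p under 0.05 (0.0173% of all genes did) and 12 had an unadjusted p under 0.05 (3.75% of all genes did). *Bcas1*, *Enpp6*, *Mag*, *Mbp* and *Cnp* among them were picked by the study on these samples, so the direction of these lists is not independent evidence. The median log2 fold change was 0.30 for the 11 newly formed genes and 0.50 for the 10 myelin genes. *Opalin*, with at most 2 reads, was left out. *Bcas1*, a gene of premyelinating oligodendrocytes, rose from 9.96 ± 2.18 CPM to 19.6 ± 3.24 CPM (SD, n = 4; log2 fold change 0.97, standard error 0.15, edgeR adjusted p = 0.0375). That adjusted p was under 0.05 in 6 of 16 alternatives and ranged from 7.18e-06 with DESeq2 to 0.848 with the brainstem and spinal cord covariate. Without 0 ppm replicates 1 and 2 it was 0.102 (log2 fold change 0.73). Antisense genes overlap 12.6% of the exons of *Bcas1*. *Enpp6*, a choline phosphodiesterase of new oligodendrocytes, was 1.65 higher on the log2 scale (standard error 0.30, edgeR adjusted p = 0.134), and *Mag*, a myelin adhesion protein gene, 1.15 higher (standard error 0.22, edgeR adjusted p = 0.169).

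For each 100 CPM of *Pdgfra* there were 6.13, 7.37, 9.48 and 9.90 CPM of *Bcas1* in the control brains and 18.4, 16.4, 12.5 and 13.6 CPM in the exposed brains. These values follow *Bcas1*, whose own levels did not overlap between doses, since *Pdgfra* varied little. The exposed brain with the lowest ratio was 50 ppm replicate 3, which also had the lowest *Sox10* of the 8 brains. The summed level of the 11 myelin genes was 120 to 152 CPM at 0 ppm and 154 to 226 CPM at 50 ppm. That of the 11 newly formed genes was 548 to 688 CPM and 574 to 636 CPM, most of it from *Fyn* and *Tcf7l2*, which neurons also express.

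Several of the 8 genes are also expressed outside the lineage, and markers of those cells were measured in the same libraries. All 10 mural cell genes, relevant to *Cspg4*, had a positive log2 fold change with a median of 0.25. None of them passed, and 3 had an unadjusted p under 0.05, against 3.75% of all genes. Their sum was 266 to 330 CPM at 0 ppm and 317 to 387 CPM at 50 ppm. The pericyte genes *Rgs5* and *Kcnj8* had log2 fold changes of 0.28 (standard error 0.10) and 0.45 (standard error 0.16). Of 10 meningeal fibroblast genes, cells that also express *Pdgfra*, 9 were positive and none passed. Their sum was 730 to 887 CPM in control brains and 897 to 1074 CPM in exposed brains, without overlap. *Ptgds*, a prostaglandin D synthase gene, was 0.51 higher on the log2 scale (standard error 0.11, edgeR adjusted p = 0.300). *Ptgds* is also a gene picked by the study on these samples. It had 215 to 269 CPM of the control sums and 292 to 450 CPM of the exposed sums, and without it the sums of the doses overlapped. The part of these cells in the levels of *Cspg4* and *Pdgfra* was not tested.

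For radial glia and astrocytes, which share *Ptprz1*, 7 of 10 genes were positive, with a median of 0.02 and sums of 1304 to 1828 CPM at 0 ppm and 1703 to 1825 CPM at 50 ppm. *Aqp4*, the astrocyte water channel, was 0.71 higher on the log2 scale (standard error 0.15, edgeR adjusted p = 0.271). With edgeR 2 of the 10 were higher and 1 lower at an unadjusted p under 0.05, against 3.75% of all genes. The others beside *Aqp4* were *Gja1* (log2 fold change 0.44, standard error 0.11) and *Nes* (-0.21, standard error 0.08). The 7 Schwann cell and neural crest genes, which share *Sox10*, were low, with sums of 8.98 to 10.5 CPM at 0 ppm and 10.4 to 14.8 CPM at 50 ppm. All 7 had a positive log2 fold change and none passed. The part of these cells in the levels of *Ptprz1* and *Sox10* was not tested.

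**Figure D5:**
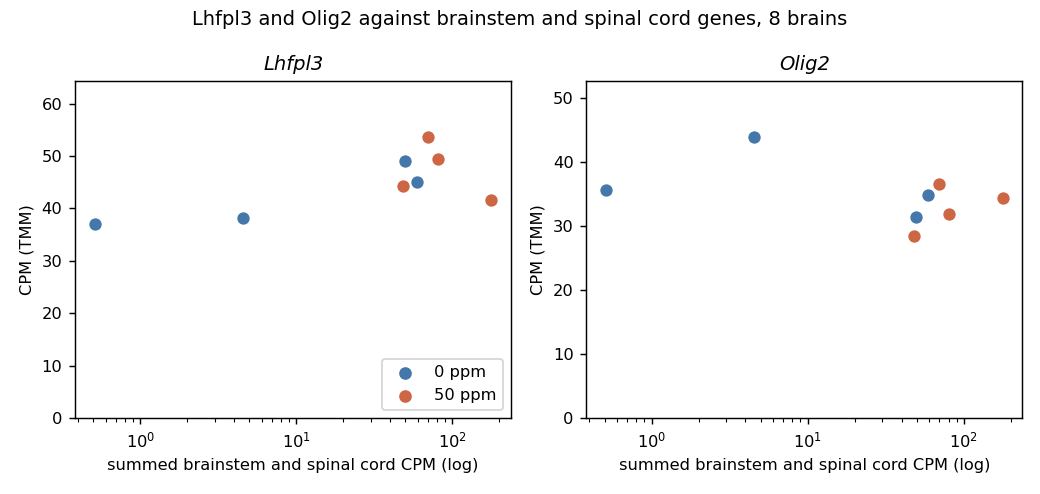
CPM of *Lhfpl3* and *Olig2* (vertical axes, from 0) against the summed CPM of 11 brainstem and spinal cord genes (log axis). Each point is a brain, and 2 of the 11 genes had no counted reads. The control brains at 0.512 and 4.54 CPM on the horizontal axis have the lowest *Lhfpl3* of the 8, and the one at 4.54 CPM has the highest *Olig2*.

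The genes with the largest and the lowest fold change of the 8, *Lhfpl3* and *Olig2*, were those whose log2 fold changes moved most when 0 ppm replicates 1 and 2 were left out. Averaged over 0 ppm replicates 1 and 2, *Lhfpl3* had 37.6 CPM and *Olig2* 39.8 CPM. In the other control pair they had 47.1 and 33.2 CPM, and the exposed brains had means of 47.2 and 32.9 CPM. For *Olig2* only replicate 2 was high (43.9 CPM), while replicate 1 had 35.7 CPM. Its log2 fold change was -0.05 without 0 ppm replicate 2 alone and -0.16 without 0 ppm replicate 1 alone. All 9 tested genes of the brainstem and spinal cord list had an unadjusted p under 0.05, against 3.75% of all genes, with a median log2 fold change of 1.78 and none passed. *Lbx1*, a gene of dorsal hindbrain and spinal neurons, had the smallest p of the list (log2 fold change 1.78, standard error 0.55, edgeR adjusted p = 0.930) and *Hoxb5* the largest log2 fold change (2.33, standard error 0.75). In the forebrain list *Dlx1*, an interneuron homeobox gene, was lower by the same measure at -0.42 (standard error 0.08, edgeR adjusted p = 0.232). The study had already picked *Dlx1* from these brains, so its direction is not independent evidence. Beyond these fits the part of brain region in the levels of *Lhfpl3* and *Olig2* was not tested.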

How the data were processed

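Per the labels, libraries were made from poly(A) RNA with a directional kit and sequenced from a single end. Per the paper's methods, the authors trimmed the initial bases after FastQC, aligned the reads with STAR to the C57BL/6J genome (GRCm38, Ensembl 87) and counted them per gene with htseq-count. The authors deposited raw counts without normalization. Tool versions and the strand setting are not given in the sources used here. The table for the CAST/EiJ genome was not used here, because its identifiers are not paired with the symbols of these genes in the tables at hand, and loss of reads from the CAST/EiJ allele was not measured.

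Symbols came from the Ensembl gene table (49326 of 49585 identifiers) and coordinates and exon lengths from GENCODE M21 on GRCm38. Genes with no count in over 2/3 of libraries were left out, as in the study. Counts were scaled by TMM and tested with edgeR 4.0.16 (glmQLFit, glmQLFTest; R 4.3.3) with treatment as the only term and Benjamini-Hochberg adjustment at 0.05. DESeq2 1.42.0, the tool of the study, and limma 3.58.1 voom were alternatives. Standard errors came from the F statistic and 95% intervals from the degrees of freedom of the fit. Exact permutation tests used all 70 labellings of log2 CPM (prior count 2), with p as double the smaller tail. The code was tested on simulated counts. P-values of the fits set the difference between doses against the spread between pups. Each pup came from a different litter, so spread between pups and between litters cannot be told apart. Figures were drawn with matplotlib 3.10.9.

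The genes and lists were chosen with earlier results of these data known. Genes were named if they were among the 8, or in each list had an adjusted p under 0.05, the smallest p or the largest absolute log2 fold change at 1 CPM or more, and the 3 most similar genes were added. Other named genes were chosen after their values were seen. A gene that this rule names is not reported here.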

Additional observations from a re-analysis of the deposited data

Results flagged for a closer look

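The level of *Pdgfra* in 50 ppm replicate 4, 141 CPM, stood apart from the other 3 exposed brains (124 to 127 CPM), with a gap of 0.840 of the range of the group, beyond the Dixon limit. It was the 1 of 16 sets of 4 brains tested that passed this limit, and chance passes about 1 in 20. Without that brain the log2 fold change of *Pdgfra* was 0.04.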

How the results depend on the processing

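None of the 8 progenitor genes was called in any of 16 alternatives, none passed the exact permutation test, and none of the 28 pairs passed in 10. No paired analysis was possible because the labels give no number that ties a control pup to an exposed one, and each pup came from its own litter. All genes called moved from 4 to 18 with DESeq2, 1 with limma-voom, 52 without the filter, 2 with at least 10 counts in 4 libraries, 1 with the brainstem and spinal cord covariate and 7 without 0 ppm replicates 1 and 2 (an alternative chosen after seeing the data). For the genes of the other lists the count moved from 1 to 6, 0, 15, 0, 0 and 0 in these fits. With 1 library left out the counts ranged from 2 to 20 and from 0 to 5, highest without 0 ppm replicate 3 and without 50 ppm replicate 3; the cause was not tested. Small log2 fold changes crossed 0. *Olig1* ranged from -0.0920 to 0.0769, *Ptprz1* from -0.0248 to 0.0946, *Cspg4* from -0.0840 to 0.0205 and *Sox8* from -0.0316 to 0.0667 with 1 library left out. With the covariate *Olig1* was -0.00834 and *Lhfpl3* -0.00413. Without 0 ppm replicates 1 and 2, *Olig1* was -0.0100, *Ptprz1* -0.0138 and *Lhfpl3* -0.00114. *Pdgfra*, *Olig2* and *Sox10* kept their direction in all 16. With 1 library left out, the permutation p, which doubles the smaller tail, cannot go under 0.05, so those 8 settings say nothing of stability for that test.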
